A study of Mus musculus with 8 samples.

Results

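In A223 cells, a mouse line that the series' title calls a squamous cell carcinoma, 8 genes of adhesion, transport and signalling were among those whose transcripts switched most between DMSO and largazole. Cadm4, Asic1, Slc25a23, Nos1 and Plvap were near silent in DMSO and raised with largazole, and Adcy8, Esm1 and Nptx1 were strongly lowered. They are 8 of the 24411 genes in the files, and they were chosen on their largazole response in these same libraries. Their change between DMSO and largazole, and the low DMSO level of the 5 raised genes, are therefore described here without a test. The choice did not name the comparison of cells with and without a PRDX6 knockdown, but it used levels in both genotypes. Likeness between the genotypes may therefore be partly set by the choice. Tests of that comparison are given for the 3 lowered genes, and the 5 raised genes are described.

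Polyadenylated RNA was sequenced from 4 groups of 2 replicate libraries. Parental A223 cells and cells with a knockdown of PRDX6 (KD), a peroxiredoxin that reduces peroxides, were each sampled with DMSO at 0 h and with 100 nM largazole at 18 h. Largazole is an inhibitor of class I histone deacetylases. Drug and time changed together, so the effect of 18 h in culture and that of the drug cannot be told apart. The labels name no control construct and no method for the knockdown, and parental cells were its only comparison. Nothing in the labels says that replicates were separate cultures, so p-values measure only the spread between these libraries.

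Histone deacetylases remove acetyl groups from histone tails, a change generally associated with closed chromatin, and their inhibitors raise histone acetylation and can switch on genes that a cell type keeps silent. Cadm4, Asic1, Nos1, Adcy8 and Nptx1 are known from the nervous system, Plvap and Esm1 from blood vessels, and Slc25a23 from mitochondria.

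Transcript levels are given as CPM, counts scaled to library size, with TMM scaling between libraries. Total estimated counts were 13020492 to 15613216 per library. Prdx6 lay at 290 ± 10.1 CPM (SD, n = 2) in parental and 82.9 ± 5.24 CPM in KD cells with DMSO, 28.6% of parental, and at 29.8% of parental under largazole. The ribosomal RNA gene Rn45s was higher in replicate 1 than in replicate 2 of every group. It lay at 1353 and 1212 CPM in parental DMSO and at 7739 and 950 CPM in parental largazole. In KD cells it lay at 9963 and 2549 CPM with DMSO and at 23920 and 742 CPM with largazole. Of 13 markers of squamous and other epithelia, Krt17, Trp63, Dsg3 and Epcam held 0 counts in parental DMSO. Krt5 held 2 counts in that group, while Krt8 held 55806. The 13 markers summed to 2486 to 2625 CPM in parental DMSO, 2657 to 2734 CPM in KD DMSO, 1622 to 1707 CPM in parental largazole and 1768 to 1970 CPM in KD largazole. Most of each sum was Krt8, which with largazole fell from 1972 to 1060 CPM in parental and from 2225 to 1289 CPM in KD cells. Of the 8 markers tested, 5 rose and 2 fell with largazole in each genotype. Of 10 immune markers, Adgre1, Cd3e and Tyrobp were at 0 in every group. The immune list summed to 4.14 to 5.13 CPM in DMSO and 42.7 to 63.9 CPM under largazole, most of it Cd68.

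Promoter sequences are shown to set the DNA before the transcription starts of 2 raised genes beside that of a lowered gene. RefSeq promoters on GRCm38.p6 matched 5 of the 8 genes (Cadm4, Asic1, Slc25a23, Nos1 and Esm1), and the 250 bases before the start were read 5′ to 3′ on the gene's strand. Cadm4, at chr7:24481773-24482022 on the plus strand, and Slc25a23, at chr17:57059864-57060113 on the minus strand, are raised genes. Esm1, at chr13:113209409-113209658 on the plus strand, is a lowered gene. Capitals mark matches, on either strand, to GGGCGG (a GC box), CCAAT and GGAATG, the motif bound by TEAD factors.
Cadm4: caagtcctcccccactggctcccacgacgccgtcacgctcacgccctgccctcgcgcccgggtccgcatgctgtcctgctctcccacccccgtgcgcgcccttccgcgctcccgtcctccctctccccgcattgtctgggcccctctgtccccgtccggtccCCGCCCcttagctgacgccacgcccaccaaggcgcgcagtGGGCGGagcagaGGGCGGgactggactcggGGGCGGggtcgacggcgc
Slc25a23: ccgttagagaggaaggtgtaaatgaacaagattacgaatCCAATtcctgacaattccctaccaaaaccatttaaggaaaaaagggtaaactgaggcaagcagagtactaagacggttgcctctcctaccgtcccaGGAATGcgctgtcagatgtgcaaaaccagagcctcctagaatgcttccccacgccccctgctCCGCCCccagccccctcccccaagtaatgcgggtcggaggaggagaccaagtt
Esm1: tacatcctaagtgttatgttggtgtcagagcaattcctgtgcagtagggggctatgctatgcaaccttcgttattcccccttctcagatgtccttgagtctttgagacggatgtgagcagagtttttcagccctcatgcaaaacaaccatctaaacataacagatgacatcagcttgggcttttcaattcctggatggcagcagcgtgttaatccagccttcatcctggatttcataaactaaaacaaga

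The Cadm4 promoter held 4 GC boxes, 30 CpG dinucleotides and 75.2% G and C, at the 96.1 percentile of the 32851 RefSeq starts. Slc25a23 held 9 CpG and 52.4% G and C, with 1 GC box, 1 CCAAT and 1 GGAATG. A second RefSeq start of Slc25a23, with its promoter at chr17:57059843-57060092, held 2 GC boxes. Esm1 held 3 CpG and 44.0% G and C, and none of the motifs searched. The promoters of Asic1 (chr15:99691974-99692223, plus strand, 59.2% G and C, 5 CpG) and Nos1 (chr5:117866589-117866838, plus strand, 54.0%, 6 CpG) also held none, and these 2 starts lie inside the genes as GENCODE draws them. The median start had 52.4% G and C and 6 CpG. On both strands of all starts, GGGCGG was present in 32.7%, CCAAT in 33.8%, TATAAA in 12.4%, CACGTG in 6.0%, TGACGTCA in 1.5%, TGANTCA in 6.7% and GGAATG in 12.6%. CCAAT and GGGCGG were thus common, and a match describes the letters only.

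Among the raised genes, Cadm4 reached by far the highest level. It encodes an immunoglobulin-family adhesion molecule that joins neighbouring cells and is known from contacts between axons and Schwann cells, and lies at chr7:24482023-24504539 (GRCm38, plus strand). In parental cells Cadm4 stood at 0.444 and 0.675 CPM with DMSO and at 98.5 and 98.7 CPM with largazole. In KD cells it stood at 0.198 and 0.589 CPM with DMSO and at 98.1 and 92.7 CPM with largazole. The 4 largazole libraries lay together and far above the 4 DMSO libraries. The ratio of mean CPM was 176 in parental cells (exact 95% binomial interval 107 to 306) and 243 in KD cells (139 to 499). Such intervals, and the floors used below, cover counting error only. These are bulk samples, in which more expressing cells and more RNA per cell cannot be told apart.

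Asic1 and Slc25a23 encode membrane transporters. Asic1 is an acid-sensing channel that lets sodium into neurons when the outside turns acidic (chr15:99670368-99701130, plus strand). Parental cells held 0 counts in both DMSO libraries and 10.7 and 11.5 CPM with largazole. KD cells held 0.329 and 0.0737 CPM with DMSO, from 5 counts and 1 count, and 13.3 and 10.5 CPM with largazole. Its largazole and DMSO libraries did not overlap. Against a floor of 3 counts per library it was at least 52.2-fold higher with largazole in parental cells, and the ratio in KD cells was 59.0 (25.7 to 155). Without KD DMSO replicate 1 that log2 ratio was 7.33 in place of 5.88, and without replicate 2 it was 5.17.

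Slc25a23 is a calcium-regulated carrier that exchanges ATP-magnesium for phosphate across the inner mitochondrial membrane (chr17:57043711-57059863, minus strand). Its parental levels were 0.0739 and 0.0675 CPM with DMSO and 13.1 CPM in each largazole library, and its KD levels 0.263 and 0 CPM with DMSO and 14.6 and 13.8 CPM with largazole. All largazole libraries lay above all DMSO libraries. The DMSO groups held 2 and 4 counts in all. The ratio was 185 in parental cells (51.0 to 1538) and 108 in KD cells (39.4 to 375), and the width of these intervals shows how little the DMSO counts fix it. The KD log2 ratio of 6.75 was 5.75 without KD DMSO replicate 2. Without replicate 1 the DMSO group held 0 counts, and against the floor of 3 counts the log2 ratio was at least 6.002. An antisense gene, Gm17168, overlaps its exons over 168 bases.

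Nos1 and Plvap stayed at lower levels. Nos1, neuronal nitric oxide synthase, makes nitric oxide from arginine when calmodulin binds it (chr5:117781032-117958840, plus strand). It held 0 counts in all 4 DMSO libraries, 4.22 and 4.42 CPM in parental largazole, and 4.44 and 5.60 CPM in KD largazole. Largazole was at least 20.4-fold higher in parental and at least 24.0-fold higher in KD cells. The antisense gene Gm26995 overlaps Nos1 exons over 268 bases, and with the strand setting of the counting not given, reads of that stretch cannot be assigned. Markers of neurons, where Cadm4, Asic1 and Nos1 are known, moved with largazole too: of 15 markers 9 were tested, and 6 rose and 2 fell in parental and 6 rose and 3 fell in KD cells. Stmn2 rose from 0.138 to 35.8 CPM and Syp from 0.0337 to 13.5 CPM in parental cells, while Nefm fell from 273 to 127 CPM and Rbfox3 was at 0 in every group. The part of these markers in the result was not tested.

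Plvap builds the diaphragms that span fenestrae and caveolae in endothelial cells (chr8:71497765-71511752, minus strand). Parental cells held 0.148 and 0.0675 CPM with DMSO and 6.47 and 5.08 CPM with largazole. KD cells held 0 counts in both DMSO libraries and 6.55 and 4.65 CPM with largazole. The groups did not overlap, and the ratio was 53.6 in parental cells (18.3 to 267), from 3 counts in DMSO, and at least 26.8 in KD cells. The parental log2 ratio of 5.74 was 6.42 without parental DMSO replicate 1 and 5.29 without replicate 2. Of 20 endothelial markers that exclude Plvap and Esm1, the defining genes Kdr, Cldn5, Robo4, Sox17 and Erg were at 0 in every group, while Pecam1 and Cdh5 held 105 and 71 counts in parental DMSO. The list summed to 57.8 to 65.6 CPM in DMSO and 77.6 to 87.4 CPM under largazole. Most of that rise was Egfl7, from 3.62 to 23.8 CPM in parental and from 5.32 to 30.7 CPM in KD cells. Apln fell from 33.6 to 25.1 CPM and from 27.8 to 18.7 CPM. Of the 10 tested, 3 rose and 1 fell in parental cells, and 4 rose and 2 fell in KD cells. The part of these markers in the result was not tested.

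**Figure D1:**
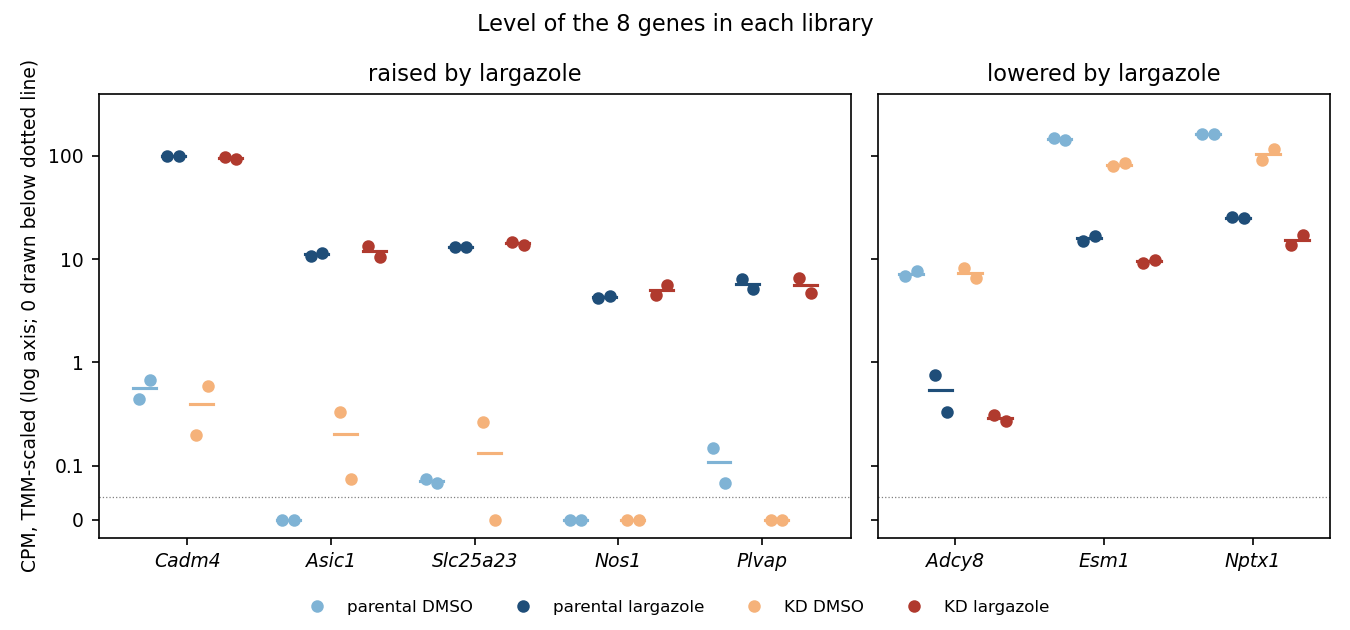
CPM of each gene in each of the 8 libraries on a log axis, with 0 drawn below the dotted line; points are libraries and short bars are group means (n = 2). Cadm4 lies near 100 with largazole while Nos1 lies near 5, and the 4 largazole libraries lie apart from the 4 DMSO libraries for all 8 genes.

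Scaled to length, the raised genes still differed widely under largazole. Per kilobase of merged exons, mean CPM in parental and KD cells was 45.6 and 44.2 for Cadm4, 2.91 and 2.82 for Plvap, 2.47 and 2.68 for Slc25a23, 1.93 and 2.07 for Asic1, and 0.387 and 0.450 for Nos1. The order was the same in both genotypes, with Cadm4 highest and Nos1 lowest, while Plvap and Slc25a23 overlapped between libraries of KD cells. With limits chosen after the data were seen, 79 genes lay at or below 1.0 CPM in every DMSO library and at or above 3.0 CPM in every largazole library, all 5 raised genes among them. By mean largazole CPM Cadm4 ranked 1, Slc25a23 10, Asic1 17, Plvap 43 and Nos1 58, around a median of 6.07 CPM.

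Adcy8, Esm1 and Nptx1 went the other way. Adcy8 is an adenylyl cyclase that calcium and calmodulin stimulate to make cyclic AMP (chr15:64697084-64922296, minus strand). Parental cells held 6.80 and 7.62 CPM with DMSO and 0.749 and 0.330 CPM with largazole, and KD cells 8.17 and 6.56 CPM with DMSO and 0.312 and 0.270 CPM with largazole. The largazole libraries, with 4 to 11 counts each, all lay below the DMSO libraries, at 7.48% of DMSO in parental cells (13.4-fold lower, interval 8.11 to 24.1) and 3.95% in KD cells (25.3-fold lower, 12.8 to 60.1).

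Esm1, also called endocan, is a secreted proteoglycan with a dermatan sulfate chain, known from vessel tips that respond to vascular endothelial growth factor (VEGF) (chr13:113209659-113218098, plus strand). In DMSO it stood at 147 and 141 CPM in parental and 78.8 and 85.2 CPM in KD cells. With largazole it stood at 15.1 and 16.8 CPM in parental and 9.12 and 9.85 CPM in KD cells. None of the 4 groups overlapped, and largazole left 11.1% of the DMSO level in parental and 11.6% in KD cells.

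Nptx1 is a secreted neuronal pentraxin that gathers AMPA receptors at synapses (chr11:119538719-119547753, minus strand). In DMSO it stood at 162 and 164 CPM in parental and 91.7 and 117 CPM in KD cells. With largazole it stood at 25.5 and 24.98 CPM in parental and 13.6 and 16.9 CPM in KD cells. Its 4 groups did not overlap either, and largazole left 15.5% of the DMSO level in parental and 14.6% in KD cells. Per kilobase, parental DMSO cells held most Esm1 (68.7 CPM), then Nptx1 (31.3 CPM) and far less Adcy8 (0.885 CPM). With limits chosen after the data were seen, 8 genes had at least 5.0 CPM in every DMSO library and at most 25% left in both genotypes, and Adcy8, Esm1 and Nptx1 ranked 1, 2 and 3 by how little was left.

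As the rule used this contrast, its background is given for reference only. By edgeR's quasi-likelihood test 49.3% of the 12517 genes tested passed an adjusted p of 0.05 in parental cells (26.8% higher, 22.6% lower) and 47.7% in KD cells (24.6% higher, 23.1% lower). In 25.1% of genes all 4 largazole libraries lay above all 4 DMSO libraries, and in 21.7% below. All 8 members passed the filter on low counts, the 5 raised ones through their largazole libraries.

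**Figure D2:**
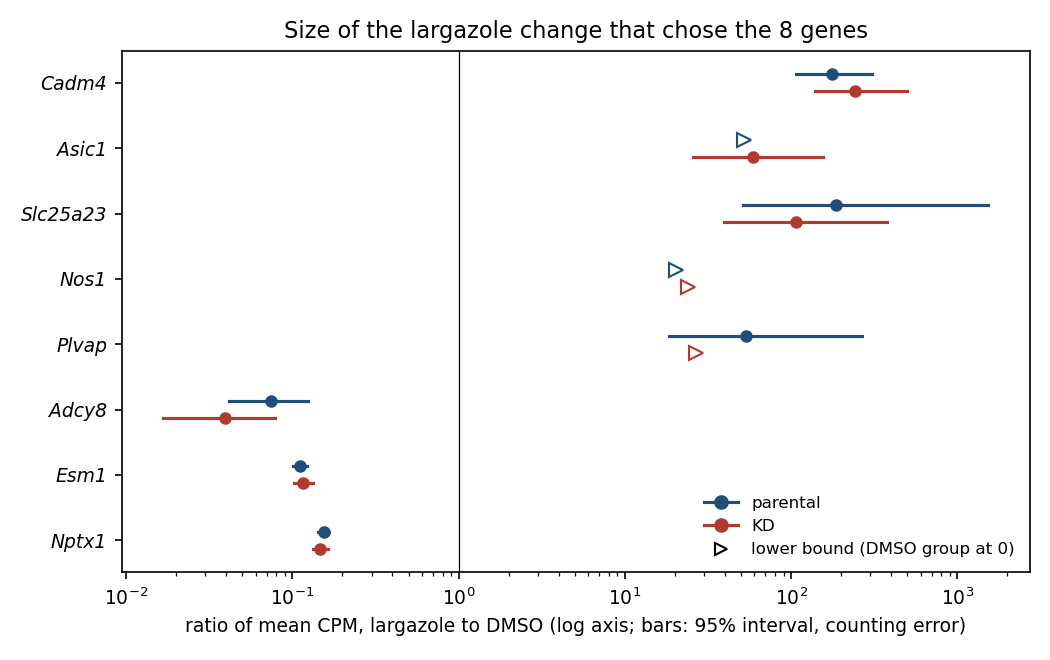
Ratio of mean CPM in largazole to DMSO for each gene in parental (blue) and KD (red) cells on a log axis, with exact 95% binomial intervals; open triangles are lower bounds where the DMSO group held 0 counts. The 5 raised genes lie at 20-fold or more, and the 3 lowered genes between 0.0395 and 0.155.

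In DMSO, Esm1 and Nptx1, 2 of the 3 lowered genes, were lower in KD than in parental cells, in a comparison in which 11.1% of all genes passed, 4.01% lower and 7.11% higher. The 5 raised genes were chosen for a low DMSO level and are not counted there. Esm1 fell from 144 ± 4.19 CPM (SD, n = 2) in parental to 82.0 ± 4.53 CPM in KD cells, 56.9% of parental, a log2 fold change of -0.81 ± 0.09 (SE) with an adjusted p of 0.000426 by edgeR's quasi-likelihood test. Nptx1 fell from 163 ± 1.42 to 104 ± 18.1 CPM, 64.1% of parental, with a log2 fold change of -0.64 ± 0.12 and an adjusted p of 0.00929 by the same edgeR test. For each gene both KD libraries lay below both parental libraries, which held for 30.3% of all genes in this comparison.

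Under largazole the same 2 of the 3 lowered genes were lower in KD cells. In that comparison 17.8% of all genes passed, 9.67% lower and 8.12% higher. The 5 raised genes were chosen for a high largazole level and are not counted. Esm1 lay at 15.9 ± 1.24 CPM in parental and 9.48 ± 0.513 CPM in KD cells, 59.5% of parental (log2 fold change -0.75 ± 0.12, adjusted p 0.00217 by edgeR). Nptx1 lay at 25.2 ± 0.348 and 15.2 ± 2.38 CPM, 60.4% of parental (-0.72 ± 0.15, adjusted p 0.00844 by edgeR). Both KD libraries again lay below both parental libraries, as for 27.8% of all genes. Of the genes tested, 2.95% (369) were lower in KD cells in both conditions.

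Esm1 passed in both comparisons under all 17 alternatives. Nptx1 did not pass after some single libraries were left out. In DMSO its log2 fold change was -0.48 without KD DMSO replicate 1 (edgeR adjusted p 0.106), -0.66 without parental DMSO replicate 1 (0.0811) and -0.64 without parental DMSO replicate 2 (0.0915). Under largazole it was -0.71 without parental largazole replicate 1 (edgeR adjusted p 0.0584) and -0.72 without replicate 2 (0.0557), close to the value with all libraries. Without KD largazole replicate 1, the library with most Rn45s, Esm1 had a log2 fold change of -0.69 and Nptx1 of -0.58 under largazole. In DMSO both KD libraries held more Rn45s than both parental libraries. KD DMSO replicate 1, with 9963 CPM of Rn45s, had 78.8 CPM of Esm1 and 91.7 CPM of Nptx1. Replicate 2, with 2549 CPM, had 85.2 and 117 CPM. The part of Rn45s in these differences was not tested. Fibroblast markers moved with the genotype: 8 of the 9 tested were higher in KD cells in DMSO and 6 of 9 under largazole, and the 10-gene list summed to 3584 to 3651 CPM in parental and 4509 to 5239 CPM in KD libraries. Neuronal markers, 15 in all, summed to 541 to 558 CPM in parental and 409 to 467 CPM in KD libraries, with Rbfox3 at 0 in every group. Of the 9 tested, 2 were higher and 3 lower in KD cells in each condition: in DMSO Syn1 and Gap43 were higher, and Tubb3, Nefl and Nefm lower. The endothelial list summed to 57.8 to 61.4 CPM in KD and 60.5 to 65.6 CPM in parental DMSO. Under largazole it summed to 77.6 to 86.9 CPM in KD and 83.4 to 87.4 CPM in parental cells. Of the 10 tested, 1 was higher and 0 lower in KD cells in DMSO, and 1 was higher and 2 lower under largazole. Angpt2 was the higher one in both, and Cdh5 and Apln were lower under largazole. The part of these markers in the lower Esm1 and Nptx1 was not tested.

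Adcy8 did not pass between genotypes in either condition. Adcy8 was at 7.21 ± 0.581 CPM in parental and 7.36 ± 1.14 CPM in KD cells with DMSO, a fold of 1.02 with a 95% interval of 0.710 to 1.47 (edgeR adjusted p 0.970). Under largazole Adcy8 was at 0.539 ± 0.297 and 0.291 ± 0.0297 CPM, a log2 fold change of -0.87 ± 0.58 (edgeR adjusted p 0.348) whose fold interval of 0.222 to 1.35 leaves a large difference undetected at this depth.

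The 5 raised genes were chosen for high largazole values, and they passed the filter through those same libraries. Their KD to parental folds under largazole are therefore a description, and no conclusion is drawn from them. The 95% interval of the fold was 0.808 to 1.16 for Cadm4, 0.760 to 1.51 for Asic1 and 0.780 to 1.50 for Slc25a23. It was 0.756 to 1.80 for Nos1 and 0.633 to 1.48 for Plvap. In DMSO, Cadm4 held 16 counts in parental and 11 in KD cells, Asic1 0 and 6, Slc25a23 2 and 4, Plvap 3 and 0, and Nos1 0 and 0, and no fold is given.

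**Figure D3:**
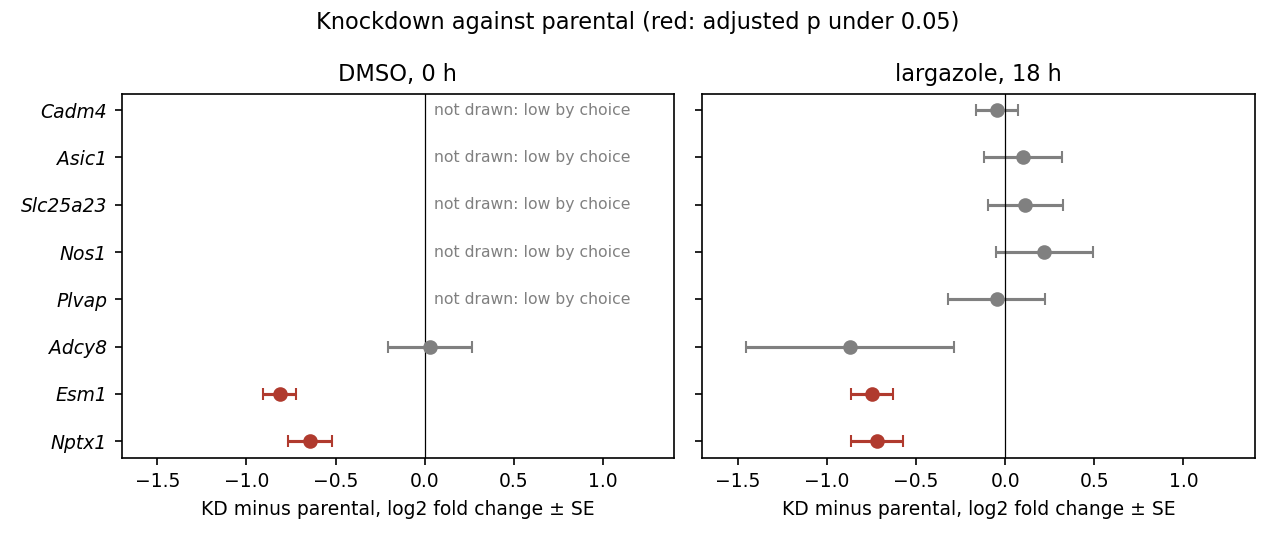
Fitted log2 fold change of KD against parental cells, with SE, in DMSO (left) and under largazole (right); red points have an adjusted p under 0.05, and the 5 raised genes, chosen for a low DMSO level, are not drawn there. Esm1 and Nptx1 lie between -0.64 and -0.81 in both panels. Under largazole the 5 raised genes, chosen for high largazole values, are drawn as a description only.

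The difference between the genotypes' largazole responses passed an adjusted p of 0.05 by edgeR for 0 of the 3 lowered genes, against 0.232% of all genes (0.192% lower and 0.0399% higher in KD cells). At an unadjusted p under 0.05 the count was also 0, and DESeq2 and limma-voom called 0. The 5 raised genes are not counted, since their DMSO level was part of the choice. The 3 lowered genes were chosen on their largazole responses, from which this difference is formed. Their count of 0 is therefore a description, and no conclusion is drawn from it. The difference in log2 response, KD minus parental, was 0.07 ± 0.15 for Esm1 (95% interval -0.27 to 0.40, edgeR adjusted p 0.968) and -0.08 ± 0.19 for Nptx1 (-0.50 to 0.35, edgeR adjusted p 0.973). For Adcy8 it was -0.90 ± 0.63 (edgeR adjusted p 0.794).

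Other genes followed the same profile over the 8 libraries. By root mean square difference of centred log2 CPM, Esm1 and Nptx1 were each other's nearest gene (0.231, Pearson r 0.997), and Adcy8 was nearest to Esm1 (0.545, r 0.969) and then Grid1 (0.652), a glutamate receptor family gene. The second nearest gene was Grid1 for Esm1 (0.434) and Hirip3 for Nptx1 (0.285). Asic1 was nearest to Syp (0.190), which encodes synaptophysin, and to Vill (0.356), and Plvap to Cbs (0.253) and Syt1 (0.344). Syt1 was also among the 2 nearest genes of Nos1 (0.216), and Lrrc15 among those of Slc25a23 (0.345). Cadm4 had no close match, with Stmn2 (0.733) and Prph (0.735) nearest. These 8 libraries share the drug contrast that dominates every such profile.

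The genes around each member were followed in 9 lists with 155 genes, of which 113 were tested. In parental cells 39 rose and 27 fell with largazole (58.4% passed, median log2 fold change 0.13 against 0.03 over all genes), and in KD cells 40 rose and 22 fell (54.9%, median 0.14 against 0.01). Over all genes 49.3% and 47.7% passed. In the response difference 0 of the 113 passed by edgeR. The parental count of 66 became 43 without parental DMSO replicate 1.

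Among the paralogs of Cadm4 the levels were mixed. Cadm1, abundant already in DMSO, fell from 155 ± 2.38 to 117 ± 3.61 CPM in parental cells (edgeR adjusted p 0.00278). In KD cells Cadm1 fell from 148 ± 3.93 to 117 ± 11.3 CPM (edgeR adjusted p 0.00856). That KD call was lost with only the libraries compared in the fit (edgeR adjusted p 0.0580), and the log2 fold change was -0.31 without KD DMSO replicate 2. Cadm2 held 0 counts in parental DMSO and 2.34 ± 0.609 CPM with largazole, and 0.103 and 3.42 CPM in KD cells, and it passed in both genotypes. Cadm3 was at 0 in every group. In the Cadm and nectin list of 16 genes, 11 were tested: 2 rose and 5 fell in parental, and 3 rose and 5 fell in KD cells, with medians of -0.31 and -0.12, and the KD count of 8 became 4 without KD DMSO replicate 2. Among nectins, Pvrl2 rose from 58.5 to 92.6 CPM in parental cells, and Pvr fell from 65.9 to 39.1 CPM and Pvrl3 from 42.6 to 28.6 CPM. All 3 passed in KD cells too, Pvrl3 with an edgeR adjusted p of 0.0535 without KD DMSO replicate 2.

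Among the paralogs of Asic1, Asic2 and Asic4 were at 0 in every group and Asic3 held at most 4 counts in a group. Of 11 genes around acid-sensing and epithelial sodium channels 4 were tested, and 2 rose in parental and 3 in KD cells (medians 1.11 and 1.21). Stoml1, a stomatin-like protein, rose from 12.9 to 28.9 CPM in parental cells and from 12.4 to 29.2 CPM in KD cells. Pick1, a PDZ protein that binds acid-sensing channels, rose from 14.0 to 29.1 CPM and from 13.4 to 30.7 CPM.

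Of the paralogs of Slc25a23, Slc25a24 and Slc25a25 were detected in DMSO. Slc25a24 was at 266 ± 3.75 CPM in parental DMSO and 244 ± 8.54 CPM with largazole, and at 223.1 ± 5.53 and 218 ± 18.9 CPM in KD cells, which did not pass (edgeR adjusted p 0.219 and 0.775). In parental cells it did pass with only the libraries compared in the fit (0.0272) and without either KD largazole library (0.0459 and 0.0349). Slc25a25 fell from 17.7 to 10.8 CPM and from 17.3 to 8.26 CPM, and Slc25a41 held at most 2 counts in a group. Of 18 mitochondrial carrier and calcium uptake genes 16 were tested, with 4 rising and 4 falling in parental (median 0.16) and 5 rising and 4 falling in KD cells (median 0.07). Without KD largazole replicate 1 the parental count of 8 became 13, and without parental DMSO replicate 1 or replicate 2 it became 5. Slc25a13, an aspartate-glutamate carrier, fell from 70.8 to 47.2 CPM and from 75.6 to 48.5 CPM.

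The genes listed around Nos1 act in nitric oxide synthesis and cyclic GMP signalling. Of 26 genes 21 were tested, and 10 rose and 2 fell in parental cells (median 0.37) and 11 rose and 1 fell in KD cells (median 0.35). Ddah1 and Ddah2, which break down an inhibitor of nitric oxide synthases, rose from 21.9 to 75.4 CPM and from 15.9 to 54.6 CPM in parental cells, and from 27.1 to 72.7 CPM and from 22.1 to 63.1 CPM in KD cells. Nos3, the endothelial synthase, was at 0.445 ± 0.420 and 1.58 ± 0.179 CPM in parental cells (edgeR adjusted p 0.0387, DESeq2 0.0804) and 0.324 ± 0.272 and 1.76 ± 0.487 CPM in KD cells (edgeR adjusted p 0.0127). Its parental call was lost without parental DMSO replicate 1 (0.224), parental largazole replicate 1 (0.148) or replicate 2 (0.0980), and its KD call without KD DMSO replicate 1 (0.104). Nos2 held at most 23 counts in a group and was not tested. The soluble guanylyl cyclase subunits Gucy1a3, Gucy1a2 and Gucy1b3, which sense nitric oxide, were at 0 in every group.

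Plvap forms the diaphragms of endothelial caveolae, and the list around it holds caveolar genes. Of 11 genes 10 were tested, and 7 rose and 0 fell in each genotype (medians 0.32 and 0.31). Sdpr, a cavin, rose from 110 to 171 CPM in parental and from 66.2 to 88.1 CPM in KD cells, Ehd2 from 465 to 652 CPM and from 440.2 to 565 CPM, and Cav2 from 147 to 197 CPM and from 157 to 224 CPM. The Cav2 call in parental cells was lost without parental DMSO replicate 1 (edgeR adjusted p 0.0601) or parental largazole replicate 2 (0.0549). The parental count of 7 became 3 without parental DMSO replicate 1 and 4 without parental largazole replicate 1 or 2, and the KD count became 3 without KD DMSO replicate 2.

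Adcy8 was a minor adenylyl cyclase beside Adcy7 and Adcy6. Per kilobase, parental DMSO cells held 42.1 CPM of Adcy7, 13.9 CPM of Adcy6, 1.81 CPM of Adcy9 and 0.885 CPM of Adcy8, and Adcy1, Adcy2, Adcy3, Adcy4, Adcy5 and Adcy10 had means of at most 0.370 CPM in any group and were not tested. Adcy6 was at 94.1, 85.8, 90.4 and 87.5 CPM in parental DMSO, parental largazole, KD DMSO and KD largazole, and Adcy7 at 284, 252, 288 and 308 CPM. Neither passed in either genotype (edgeR adjusted p 0.384 and 0.779 for Adcy6, 0.196 and 0.480 for Adcy7). Adcy6 passed as lower in KD cells without KD largazole replicate 2 (0.0198), and Adcy7 as higher in KD cells without replicate 1 (0.00819) and as lower in parental cells without either KD largazole library (0.0150 and 0.0110) or with only the libraries compared (0.00366). Adcy9 was at 9.38 ± 0.191 and 14.4 ± 1.04 CPM in parental cells (edgeR adjusted p 0.0131) and 12.3 ± 2.65 and 15.98 ± 0.00232 CPM in KD cells (edgeR adjusted p 0.0872). Its parental call was lost without parental DMSO replicate 1 (0.0778) or 2 (0.0651) or parental largazole replicate 1 (0.0853), and its KD value passed without KD DMSO replicate 2 (0.0298) and with upper-quartile scaling (0.0447).

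Of 36 genes of cyclic AMP signalling 26 were tested, and 10 rose and 4 fell in parental cells (median 0.19) and 6 rose and 2 fell in KD cells (median 0.12). The parental count of 14 became 8, 7 and 8 without parental DMSO replicate 1, parental DMSO replicate 2 and parental largazole replicate 1, and the KD count of 8 became 5 without KD DMSO replicate 1, and 13 when KD largazole replicate 1 was left out. Pde1b and Pde4d, which break down cyclic nucleotides, rose from 2.51 to 7.63 CPM and from 8.83 to 16.4 CPM in parental cells, and from 2.03 to 7.48 CPM and from 18.8 to 32.4 CPM in KD cells. Prkacb, a catalytic subunit of protein kinase A, fell from 125 to 77.4 CPM and from 126 to 77.9 CPM.

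Around Esm1, a list of 6 ligands holds VEGF family members and Hgf, hepatocyte growth factor, which is not one of them. All 5 ligands tested fell in parental cells (median -0.78), and 2 fell and 1 rose in KD cells (median -0.44). Both medians are the values of Hgf. Figf, which encodes VEGF-D, fell from 14.1 to 6.54 CPM and from 20.8 to 10.2 CPM. Vegfb fell from 58.9 to 34.0 CPM and from 57.6 to 37.5 CPM, a call lost in parental cells without parental largazole replicate 2 (edgeR adjusted p 0.0502), and in the KD comparison when KD DMSO replicate 1 was left out (0.111). Vegfa, chosen after its values were seen, went from 216 ± 8.70 to 180 ± 1.46 CPM in parental cells (edgeR adjusted p 0.0197) and from 313 ± 12.9 to 395 ± 31.7 CPM in KD cells (edgeR adjusted p 0.00612). Its response difference of 0.60 ± 0.11 did not pass (edgeR adjusted p 0.0894). Vegfa was higher in KD than in parental cells in DMSO (log2 fold change 0.53, edgeR adjusted p 0.00213) and under largazole (1.14, edgeR adjusted p 3.19e-05). Esm1 was lower in both comparisons. Of the 5 ligands tested, 3 were higher and 0 lower in KD cells in each condition. The part of these ligands in the level of Esm1 was not tested. The parental count of 5 was 3 without parental DMSO replicate 1, 2 without parental DMSO replicate 2, 3 without parental largazole replicate 1 and 2 without parental largazole replicate 2, and it was 3 with upper-quartile scaling. For largazole in KD cells the count of 3 was 5 with limma-voom, without a filter and with the replicate number as a block.

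Of 19 genes that build chondroitin and dermatan sulfate chains, such as the one on Esm1, 17 were tested, and 2 rose and 7 fell in parental cells (median -0.27) and 2 rose and 8 fell in KD cells (median -0.37). Csgalnact1, which starts such chains, fell from 132 to 75.7 CPM and from 116 to 83.7 CPM, and Ust, a sulfotransferase, from 33.3 to 19.1 CPM and from 37.5 to 25.5 CPM. The KD calls of Csgalnact1 (edgeR adjusted p 0.0788) and Ust (0.0571) were lost without KD DMSO replicate 2. Chst12, another sulfotransferase, rose from 35.8 to 66.9 CPM and from 40.3 to 61.5 CPM.

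Around Nptx1, its receptor-like relative Nptxr rose from 96.2 ± 7.49 to 136 ± 4.71 CPM in parental cells (edgeR adjusted p 0.00322, and 0.0572 without parental DMSO replicate 1) and from 79.8 ± 5.39 to 114 ± 14.3 CPM in KD cells (edgeR adjusted p 0.00293), while Nptx1 was lowered. Nptx2 was at 0 in every group. Of 12 pentraxin and AMPA receptor genes only 3 were tested, and 2 rose in each genotype (medians 0.50 and 0.51), Nptxr and the receptor subunit Gria1, which was below 1.5 CPM in every library. The parental count of 2 became 1 without parental DMSO replicate 1. The KD count became 1 without either KD DMSO library or KD largazole replicate 2, and 4 when KD largazole replicate 1 was left out.

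**Figure D4:**
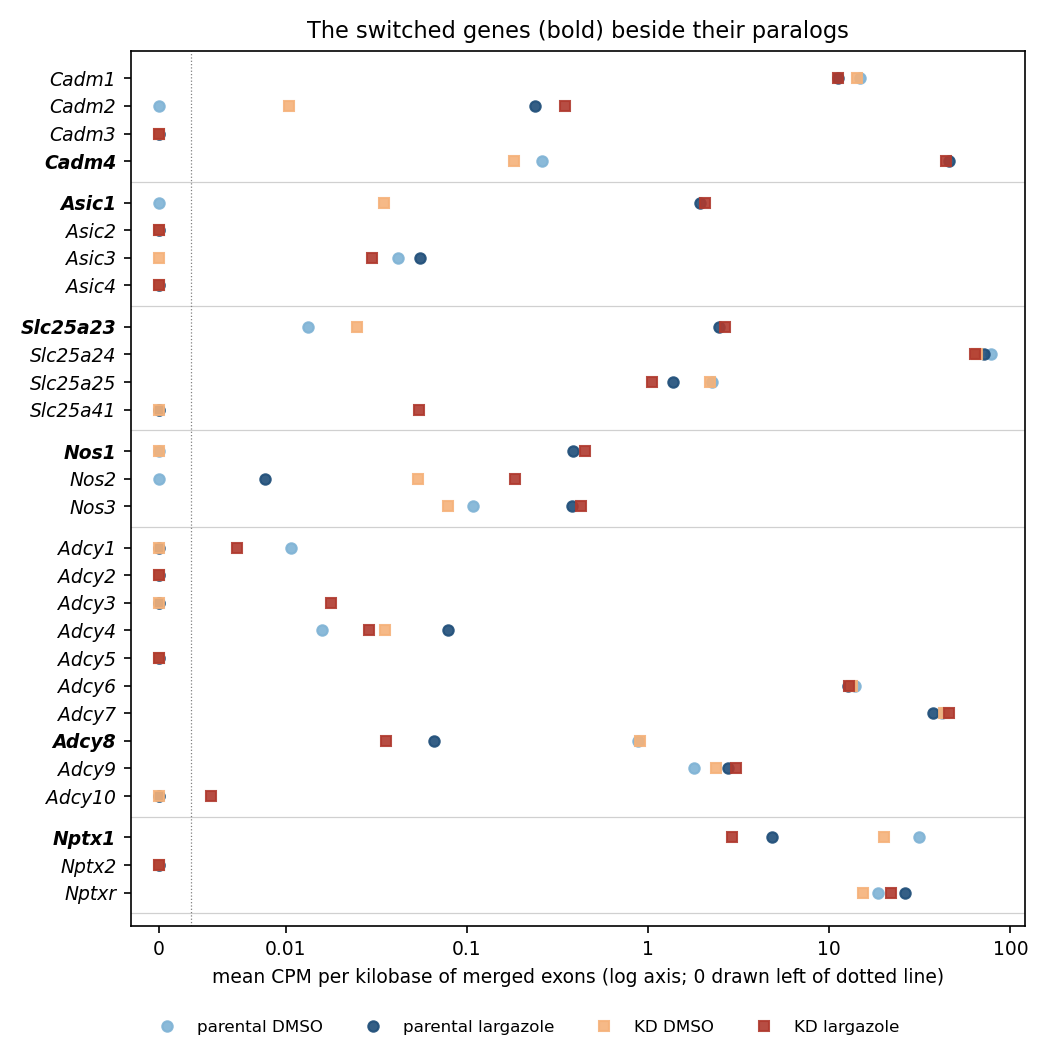
Mean CPM per kilobase of merged exons in the 4 groups for members (bold) and their paralogs on a log axis, with 0 drawn left of the dotted line. Slc25a24, Adcy7, Adcy6 and Cadm1 lie above 10 in every group, while Asic2, Asic4, Cadm3, Adcy2, Adcy5 and Nptx2 lie at 0.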

How the data were processed

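The authors deposited estimated counts for each gene symbol, 1 file per library, made against mm10, per the submitters' processing notes. They are not normalized, and 2.50 to 2.83% of values in a library are not whole. Aligner, counting tool, strand setting and annotation: not given in the sources used here. Library kits were directional with polyA selection, per the labels' protocols. Of the 24411 symbols 27 had become dates, as a spreadsheet program makes them, and have no usable name.

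Expected counts as deposited were rounded to whole numbers and tested two-sided by the quasi-likelihood F test of edgeR 4.0.16, scaled by TMM, after filterByExpr (minimum count 10, minimum total 15), on all 8 libraries with 1 mean per group. Adjusted p is by Benjamini-Hochberg over the 12517 genes tested (threshold 0.05), with a common biological coefficient of variation of 0.0946. Dividing a log2 fold change by the square root of F gave its SE. The fit was tested on simulated data holding known changes, placed in well-expressed genes and with a common spread for all genes. That simulation does not cover genes near 0 counts or a spread that differs between genes. Floors of 3 counts per library stand in for groups at 0, and correspond to 0.201 to 0.218 CPM.

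The 8 members and the 9 related and 5 marker lists were chosen with earlier results of these data known. Genes named are the members, Prdx6, the stated paralogs, per related list up to 3 genes with the largest change among those passing in both genotypes in 1 direction with at least 5 CPM in a group, and per member the 2 genes with the most similar profile. A few genes this rule names are not reported here. Of the 223 list genes 17 were matched by an older symbol. Positions are from GENCODE M21 on GRCm38 and promoters from RefSeq on GRCm38.p6.

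Alternatives were scaling by RLE, by upper quartile or by library totals only, no filter, a minimum count of 30, DESeq2 1.42.0, limma-voom (limma 3.58.1), a fit of only the libraries compared, a block for the replicate number, and dropping 1 library at a time, after which a lone library is assumed to vary like the other groups. Scripts ran in R 4.3.3 and Python 3.11.15, with figures by matplotlib 3.10.9. Totals of 13020492 to 15613216 counts make counting error large for members near 0 counts.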

Additional observations from a re-analysis of the deposited data

How the results depend on the processing

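With 2 libraries per group, and DMSO counts of 0 to 16 per group for the raised genes, depth limits every ratio and genotype comparison that rests on those counts. Among the 3 lowered genes, Esm1 and Nptx1 passed between genotypes in DMSO and under largazole. The 5 raised genes are not counted, since their levels in DMSO and under largazole were part of the choice. Both counts of 2 held with every change of scaling, filter, tool or libraries fitted. Leaving out 1 library gave log2 fold changes in DMSO of -0.88 to -0.76 for Esm1 and -0.84 to -0.48 for Nptx1. Under largazole the ranges were -0.82 to -0.65 for Esm1 and -0.89 to -0.58 for Nptx1. As described above, Nptx1 did not always pass when 1 library was left out. For the 3 lowered genes the response difference gave 0 with every change of scaling, filter or tool. Related genes passing with largazole numbered 43 to 87 in parental cells (66 with all libraries) and 43 to 75 in KD cells (62) when 1 library was left out.

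With the replicate number as a block the same counts stayed at 2 in DMSO, 2 under largazole and 0 in the response difference. Related genes numbered 74 and 69. Over all genes the block gave 2049 calls between genotypes in DMSO in place of 1392, 3003 under largazole in place of 2227, and 119 in the response difference in place of 29. Deviations of same-numbered libraries correlated at -0.008 to 0.364 over 10183 genes, above 0.1 in 4 of the 6 pairs of groups, and the labels tie the numbers to no shared culture, batch or day. Other counts over all genes that moved by more than 1.5 times were 3248 in DMSO and 957 under largazole with only the libraries compared, and 84 with DESeq2 and 114 without a filter in the response difference. Leaving out 1 library gave 2 to 544 there. Of the list counts, a fit of only the libraries compared moved by more than 1.5 times carriers (13 in place of 8) and nitric oxide genes (19 in place of 12) in parental cells, and adhesion (5 in place of 8), caveolae (4 in place of 7), cyclic AMP (5 in place of 8) and pentraxin genes (1 in place of 2) in KD cells. A minimum count of 30 left 1 pentraxin gene in each genotype.

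Some log2 differences that did not pass with all libraries changed sign, and the cause was not tested. Leaving out 1 library at a time gave -0.139 to 0.173 for Adcy8 between genotypes in DMSO. Under largazole the same gave -0.0750 to 0.260 for Asic1 and -0.309 to 0.185 for Plvap. For the response difference the range was -0.0109 to 0.174 for Esm1 and -0.247 to 0.125 for Nptx1. With largazole in KD cells it was -0.125 to 0.0507 for Slc25a24, -0.263 to 0.134 for Adcy6 and -0.0762 to 0.241 for Adcy7. In that comparison library totals only gave 0.0247 for Slc25a24 and 0.0122 for Adcy6, and upper-quartile scaling gave 0.0492 and 0.0337.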
